A study of Mus musculus with 8 samples.

Results

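The genes described here are the Hox cluster genes, taken as every non-control Agilent probe whose gene name was Hoxa, Hoxb, Hoxc or Hoxd followed by a number. The rule found 49 probes of 38 genes, among 41174 non-control probes on the array. They were 14 probes of 11 Hoxa genes on chromosome 6, 14 probes of 10 Hoxb genes on chromosome 11, 9 probes of 8 Hoxc genes on chromosome 15 and 12 probes of 9 Hoxd genes on chromosome 2. No probe was named Hoxc11. Of the 38 genes, 27 had 1 probe and 11 had 2 probes.

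Hox genes encode homeodomain transcription factors that give cells of the embryo their position along the body axis. They lie in clusters, and within a cluster the genes with low paralog numbers are active in anterior regions and those with high numbers in posterior regions, limbs and genital bud. In embryonic stem cells the clusters are classical targets of Polycomb repression, while fibroblasts keep a Hox pattern that reflects the place in the body from which they were taken.

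RNA from 4 mouse cell populations was hybridised, each on 1 one-colour Agilent array labelled with Cy3. ES denotes embryonic stem cells of the 129/Ola background, derived from blastocysts. MEF denotes mouse embryonic fibroblasts, for which the labels give neither a strain nor the body region. PM2i-iPSC denotes MEFs exposed to combinations containing purmorphamine, a synthetic compound that switches on Hedgehog signalling through Smoothened, and then to 2i/LIF. OM2i-iPSC denotes MEFs exposed to combinations containing an oxysterol, a cholesterol derivative of which some forms also activate Smoothened, and then to 2i/LIF, a stem cell medium that blocks MEK and GSK3 and supplies the cytokine LIF. The title of the series names the reprogramming of somatic cells to pluripotency by small molecules as its subject. The labels do not give the other members of the combinations, the number of passages or clones, or whether the treated fibroblasts came from the culture on the MEF array. The other 4 samples of the series, on another array type, were not analysed here.

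With 1 array per group there is no replicate error and no test, so every difference below compares these arrays only. The sole error that can be given is that between repeated spots of 1 probe on an array, with an SD of 0.188 in log2 units and of 0.265 between a pair of arrays. ES and PM2i-iPSC shared a slide, OM2i-iPSC lay on another and MEF on the third, scanned on another day with an older version of the extraction software. Slide, scan and group therefore cannot be told apart in any comparison that involves MEF or OM2i-iPSC. The lowest signal well above background was 16.3 on the MEF array, against 90.1 for ES, 147 for PM2i-iPSC and 142 for OM2i-iPSC, so dim transcripts could be measured in MEF that could not be on the other arrays.

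Marker genes were read as a check on the labels. Of 15 probes for ES cell markers, 15, 14, 15 and 15 were well above background in ES, MEF, PM2i-iPSC and OM2i-iPSC. Their summed log2 levels were 7.48, 5.23, 7.30 and 7.13. The MEF sum came largely from 1 of the 2 Klf2 probes, at 5.15, whereas Pou5f1 was at -6.66 there against 3.65 in ES. Of 25 fibroblast probes, 24 were well above background in MEF, 19 in ES, 12 in PM2i-iPSC and 13 in OM2i-iPSC, with summed log2 levels of 7.86 in MEF and 4.00, 2.93 and 3.04 in the others. The summed level of 14 neural marker probes was 1.77 in OM2i-iPSC, 0.52 in PM2i-iPSC, 0.36 in ES and 1.34 in MEF. In OM2i-iPSC 10 of these 14 were well above background, including 3 Snap25 probes between -2.81 and -1.23.

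The 60-base probes differ in which part of the transcript they read, which matters for reading the values. The letters of 12 probes, translated, hold a conserved stretch of the encoded protein, and these are therefore coding. They are 10 probes on a homeodomain helix, the DNA-binding part that Hox proteins share, and 2 on the hexapeptide, the short motif that binds Pbx cofactors. For the other 37 the exon or UTR position was not analysed here. The probes below are shown because they gave large differences between the iPSC preparations and ES or MEF, or because they stayed dim while the other probe of the same gene was bright. Capitals mark the codons of the conserved stretch.
Hoxa4 A_52_P638382: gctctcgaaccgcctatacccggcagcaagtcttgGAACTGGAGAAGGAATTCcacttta
Hoxb13 A_51_P290202: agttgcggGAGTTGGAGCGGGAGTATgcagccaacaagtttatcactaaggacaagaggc
Hoxd9 A_51_P430728: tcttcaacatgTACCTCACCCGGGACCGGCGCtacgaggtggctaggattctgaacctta
Hoxd13 A_51_P284571: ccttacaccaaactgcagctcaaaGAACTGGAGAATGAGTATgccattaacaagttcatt
Hoxa13 A_52_P71789: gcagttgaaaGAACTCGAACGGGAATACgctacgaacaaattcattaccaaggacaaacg

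In the mm7 build named in the MEF file, these lie at chr6:52154062-52154121 (Hoxa4), chr11:96304167-96304226 (Hoxb13), chr2:74542992-74543051 (Hoxd9), chr2:74513664-74513723 (Hoxd13) and chr6:52222385-52222444 (Hoxa13). Capitals fall in the first helix for Hoxa4, Hoxb13, Hoxd13 and Hoxa13 and in the second for Hoxd9. The array's annotation also lists a Hoxd3 transcript for the Hoxb3 probe. Homeodomain letters are alike between Hox genes, and how far the homeodomain probes read other Hox transcripts was not tested.

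Levels are given as log2 of the processed signal relative to the 75th percentile of the array, so 0 is that percentile. Levels of different probes are not compared. A difference is called measured when both arrays were well above background. Where 1 side was not, or was saturated, the fold is a bound, written "at least", with the dim side raised to the detection limit of its array, which is the lowest signal there that was well above background, where it lay under it. Hox probes were more often detected in MEF than elsewhere: 44 of 49 (89.8%) were well above background in MEF, 26 (53.1%) in ES, 23 (46.9%) in PM2i-iPSC and 29 (59.2%) in OM2i-iPSC. Over all probes the shares were 72.4%, 66.7%, 63.3% and 66.0%. Of the 49, 19 were well above background on all 4 arrays, 11 in MEF alone and 5 on none. Those 5 were Hoxb1 and 1 of the 2 probes each for Hoxa4, Hoxa13, Hoxb8 and Hoxd3.

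**Figure D1:**
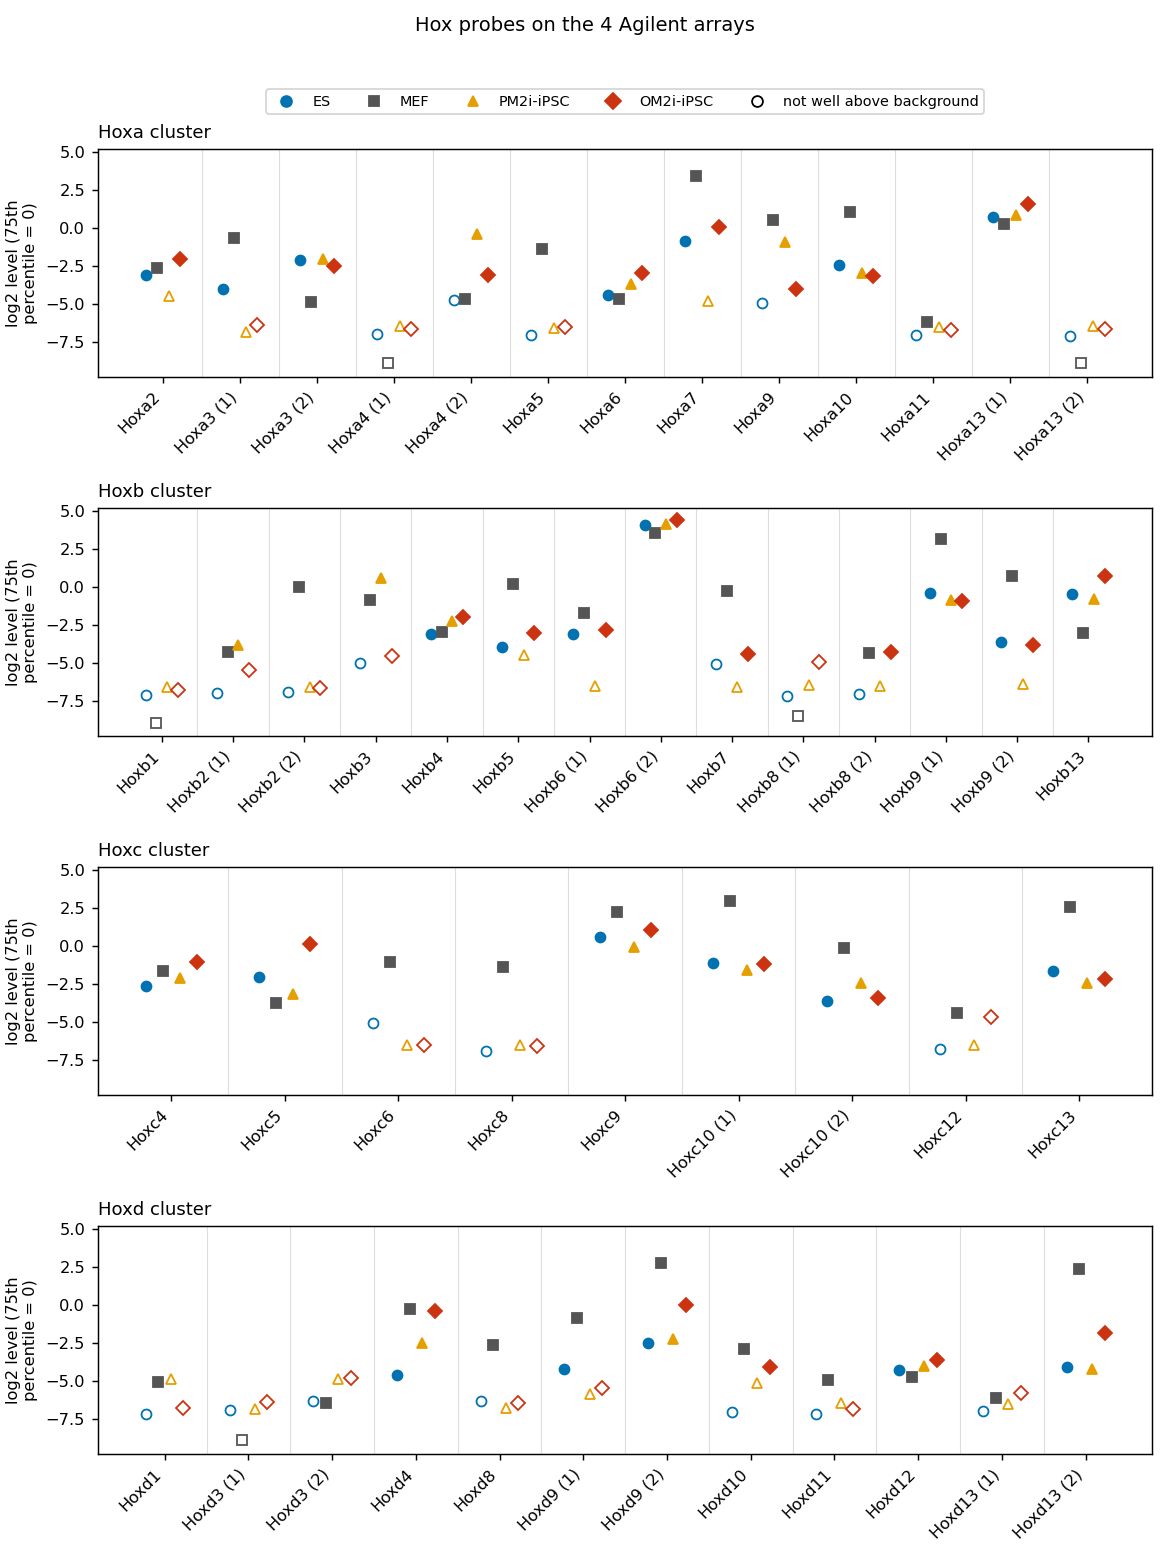
Log2 level of the Hox probes on the 4 arrays (75th percentile of the array = 0), in 1 panel per cluster, with genes in paralog order and the 2 probes of a gene numbered. Filled symbols are well above background and open symbols are not. MEF squares stand highest for Hoxa7, Hoxa10, Hoxb9, Hoxc10, Hoxc13 and Hoxd9, while Hoxa3 probe 2, Hoxb13 and Hoxc5 have MEF lowest.

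Against MEF, Hox transcripts were mostly lower in all 3 pluripotent populations, and the share of Hox probes above MEF was under that of the array as a whole. ES was at least 2-fold lower for 24 of the 41 Hox probes that gave a fold and at least 2-fold higher for 3. Over all probes 24.1% were lower and 37% higher. PM2i-iPSC was lower for 24 of 39 and higher for 5, against 26.1% and 37.9% of all probes. OM2i-iPSC was lower for 23 of 39 and higher for 7, against 25.8% and 39.4%. The median Hox difference, bounds included, was -2.48 for ES, -2.27 for PM2i-iPSC and -1.95 for OM2i-iPSC, where the medians over all probes were 0.31, 0.29 and 0.34. These 3 comparisons share the MEF array, so they are not independent of each other. The split depends on the scaling. With the arrays centred on their medians, the medians over all probes became -0.25, -0.34 and -0.39, with 27.8%, 28.0% and 28.6% of all probes higher and 33.9%, 36.8% and 38.3% lower. The Hox counts were then 29 lower and 3 higher for ES, 25 and 3 for PM2i-iPSC, and 24 and 3 for OM2i-iPSC. The Hox median minus the median over all probes stayed below 0 under both scalings in each comparison.

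A probe that was well above background in MEF alone could only come out lower, so the counts were also taken over probes well above background on both arrays. That left 15 lower and 3 higher of 26 for ES, 10 lower and 5 higher of 23 for PM2i-iPSC, and 15 lower and 7 higher of 29 for OM2i-iPSC. Over all probes so detected, 21.8%, 23.5% and 24.3% were lower and 35.2%, 36.9% and 37.4% higher. On this basis the median of PM2i-iPSC against MEF was 0.49 rather than -2.27, which no longer placed it below MEF. The median over all probes was then 0.36. The value of 0.49 is that of the Hoxb2 probe A_51_P257789, which lies on the strand opposite to the other Hoxb probes and had no RefSeq match. This basis has a bias of its own, since it drops probes that fell under detection in PM2i-iPSC, among them Hoxa7, Hoxb5 and Hoxb7. In bulk RNA, fewer cells that carry a transcript and less of it per cell cannot be told apart. The fibroblast markers above were lower in the same populations, and their part in the Hox differences was not tested.

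**Figure D2:**
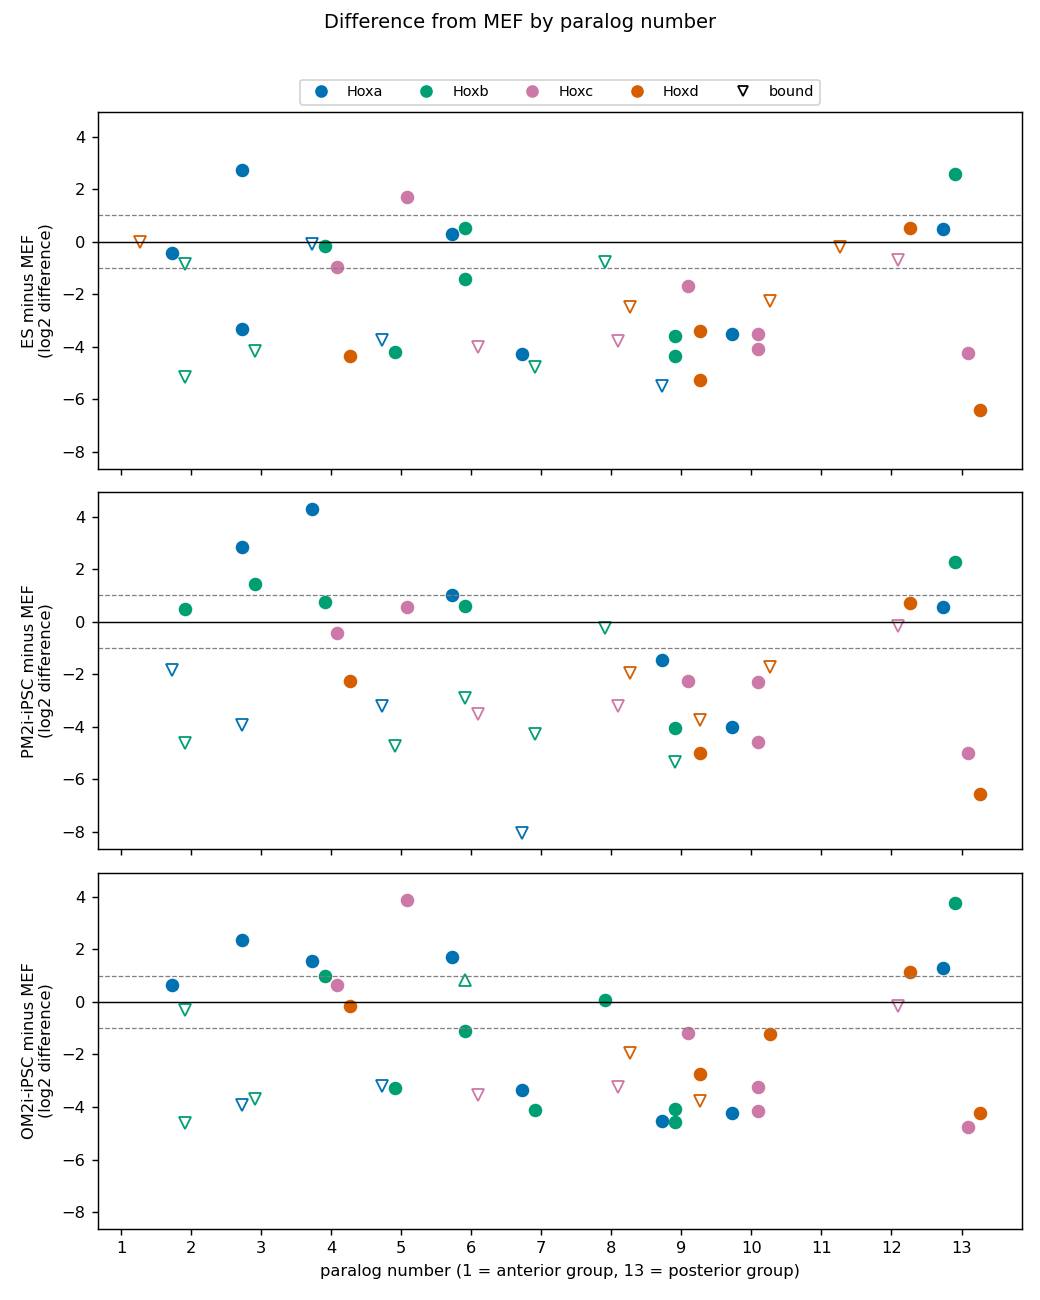
Log2 difference of the Hox probes from MEF, for ES, PM2i-iPSC and OM2i-iPSC, by paralog number and coloured by cluster. Filled circles are measured on both arrays, open triangles are bounds and dashed lines mark 2-fold. All 6 probes of paralog group 9 and all 4 of group 10 lie below the lower dashed line in each panel, while groups 1 to 4 lie on both sides.

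The posterior genes, paralogs 9 to 13, were mostly lower than in MEF, and most of these gaps were measured on both arrays. Of posterior probes with a fold, 12 of 17 were at least 2-fold lower in ES, 12 of 16 in PM2i-iPSC and 12 of 16 in OM2i-iPSC, with medians of -3.51, -3.02 and -3.51, where 24.1%, 26.1% and 25.8% of all probes were lower. Of these lower probes 10, 9 and 11 were measured on both arrays. Posterior probes at least 2-fold higher numbered 1, 1 and 3, where 37%, 37.9% and 39.4% of all probes were higher. Each of the 6 probes of paralog group 9 and each of the 4 of group 10 was at least 2-fold lower in all 3 populations. Other settings took Hoxc9 and Hoxd10 out of this count: the OM2i-iPSC difference of Hoxc9 was -0.89 with quantile normalisation, and with normexp Hoxd10 was at -0.81 in PM2i-iPSC and -0.72 in OM2i-iPSC. Hoxd13 patterns digits and genitalia. Its homeodomain probe, matched to the gene in RefSeq, was too dim for any fold. Its 1 bright probe, A_52_P591310 at chr2:74514907-74514966, had no RefSeq match. On the bright probe the log2 levels were 2.36 in MEF, -4.06 in ES, -4.19 in PM2i-iPSC and -1.85 in OM2i-iPSC. PM2i-iPSC was thus 93.5-fold and OM2i-iPSC 18.5-fold below MEF. ES and PM2i-iPSC lay within the spot error of each other, and OM2i-iPSC stood between them and MEF.

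Hoxd9, which acts in limb and spinal cord, gave the same order on its brighter probe A_52_P385584. The levels were 2.73 in MEF, -2.53 in ES, -2.26 in PM2i-iPSC and -0.03 in OM2i-iPSC, so that ES was 38.4-fold, PM2i-iPSC 31.8-fold and OM2i-iPSC 6.75-fold below MEF. Its other probe, the homeodomain probe printed above, was at -4.24 in ES and -0.84 in MEF and not well above background in either iPSC preparation. On that probe OM2i-iPSC was at least 13.6-fold below MEF, a wider gap than on the brighter probe.

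Hoxc13, known for its role in hair and nail, was at 2.56 in MEF, -1.66 in ES, -2.42 in PM2i-iPSC and -2.19 in OM2i-iPSC. Here OM2i-iPSC did not stand apart: the folds below MEF were 18.7 in ES, 31.7 in PM2i-iPSC and 27.0 in OM2i-iPSC. Hoxc10, a gene of lumbar motor neurons and hindlimb, was at -1.14, 2.95, -1.61 and -1.19 on probe A_51_P375754 in ES, MEF, PM2i-iPSC and OM2i-iPSC, folds of 17.1, 23.7 and 17.7 below MEF. Hoxb9, a gene of the thoracic rib region, was at -0.41, 3.18, -0.85 and -0.91 on probe A_52_P973575 in the same sequence of arrays, and 12.1-, 16.3- and 17.1-fold below MEF. Hoxa10, which patterns the uterus and the lumbar region, was at -2.46, 1.05, -2.97 and -3.16 likewise, and 11.4-, 16.2- and 18.5-fold below MEF. For these 4 genes the pluripotent populations lay closer to each other than any did to MEF.

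Hoxa9, a regulator of blood progenitors and of the thoracic and lumbar axis, was read by a homeodomain probe. Its levels were 0.53 in MEF, -0.92 in PM2i-iPSC, -4.01 in OM2i-iPSC and -4.96 in ES, the last not well above background. PM2i-iPSC was 2.74-fold and OM2i-iPSC 23.3-fold below MEF, and PM2i-iPSC was nearer to MEF than to ES. Hoxc9 differed less, at 2.23 in MEF, 0.55 in ES, -0.04 in PM2i-iPSC and 1.03 in OM2i-iPSC, which put the 3 populations between 2.30- and 4.82-fold below MEF. Hoxd10 was well above background in MEF, at -2.88, and in OM2i-iPSC, at -4.11. Of the other posterior probes, Hoxd11 and Hoxc12 were well above background in MEF alone and within 2-fold of the detection limit of the other arrays. Hoxa11 and the homeodomain Hoxd13 probe were too dim for any fold. Hoxd12 differed from MEF by 1.42-fold in ES and 1.66-fold in PM2i-iPSC and was 2.21-fold above it in OM2i-iPSC.

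The middle genes, paralogs 5 to 8, pattern the neck and trunk. Of 12 middle probes with a fold, 8 were at least 2-fold lower in each of ES, PM2i-iPSC and OM2i-iPSC, with medians of -3.11, -3.05 and -2.58, against the same shares of all probes. Of those 8, however, 3 in ES, 0 in PM2i-iPSC and 4 in OM2i-iPSC were measured on both arrays. The others were not well above background in the population set against MEF and could only come out lower. The middle genes thus give no measured value at least 2-fold below MEF for PM2i-iPSC. Hoxa7, at chr6:52178996-52179055, had log2 levels of 3.43 in MEF, -0.85 in ES, -4.84 in PM2i-iPSC and 0.06 in OM2i-iPSC. PM2i-iPSC was not well above background there and was at least 259-fold below MEF. ES was 19.4-fold and OM2i-iPSC 10.3-fold below MEF, and both were bright, so PM2i-iPSC stood apart from ES as well.

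Hoxb5, a gene of the cervical and upper thoracic region, was at 0.21 in MEF, -3.98 in ES, -4.50 in PM2i-iPSC and -3.06 in OM2i-iPSC. ES was 18.2-fold, PM2i-iPSC at least 26.2-fold and OM2i-iPSC 9.62-fold below MEF. Hoxb7 was at -0.30 in MEF and -4.40 in OM2i-iPSC, and not well above background in ES or PM2i-iPSC, so that ES was at least 27.1-fold, PM2i-iPSC at least 19.5-fold and OM2i-iPSC 17.1-fold below MEF. Hoxa5, a gene of lung and neck development, Hoxc6 and Hoxc8 were well above background in MEF only, at -1.39, -1.07 and -1.37. Their bounds lay between 9.20- and 16.2-fold in the 3 populations, and they hold no order among ES, PM2i-iPSC and OM2i-iPSC. Hoxd8 was the fourth such middle gene, at -2.66 in MEF.

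The anterior genes, paralogs 1 to 4, pattern the hindbrain and neck, and their share below MEF was near that of all probes. There 4 of 12 anterior probes with a fold were at least 2-fold lower in ES, 4 of 11 in PM2i-iPSC and 3 of 11 in OM2i-iPSC, against 24.1%, 26.1% and 25.8% of all probes, and their medians came to -0.65, 0.49 and 0.63. Of the lower ones 2, 1 and 0 were measured on both arrays. Anterior probes at least 2-fold higher numbered 1, 3 and 2, where 37%, 37.9% and 39.4% of all probes were higher. Hoxb2, which acts in hindbrain segments, was well above background in MEF alone on probe A_52_P15300, at 0.01, and the other populations were at least 35.3-, 24.2- and 24.4-fold lower. Hoxd4, a gene of the lower hindbrain and neck, was at -0.25 in MEF, -4.60 in ES, -2.52 in PM2i-iPSC and -0.39 in OM2i-iPSC. ES was 20.4-fold and PM2i-iPSC 4.82-fold below MEF, whereas OM2i-iPSC was at 1.10-fold, within the spot error of MEF. With median centring that OM2i-iPSC difference was -0.88 on the log2 scale, beyond the spot error.

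Hoxb3 was read by a homeodomain probe, with levels of -0.86 in MEF, -5.01 in ES, 0.57 in PM2i-iPSC and -4.56 in OM2i-iPSC. ES and OM2i-iPSC were not well above background and lay at least 17.7- and 13-fold below MEF, while PM2i-iPSC was 2.69-fold above it, a difference of 1.43 that fell to 0.80 with median centring. Hoxb4, known for blood stem cell growth, lay within 2-fold of MEF in all 3 populations, as did Hoxa2 in ES and OM2i-iPSC and Hoxc4 in all 3. Hoxa2 was at least 3.57-fold lower in PM2i-iPSC, where it was not well above background.

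Some Hox probes were lowest in MEF. Hoxb13, a gene of the tail end of the axis and of prostate, was at -3.03 in MEF, -0.44 in ES, -0.77 in PM2i-iPSC and 0.75 in OM2i-iPSC, which is 6.03-fold above MEF in ES, 4.79-fold in PM2i-iPSC and 13.7-fold in OM2i-iPSC. Hoxc5, a gene of the cervical region, was at -3.75 in MEF, -2.07 in ES, -3.19 in PM2i-iPSC and 0.11 in OM2i-iPSC, 3.21-fold above MEF in ES and 14.6-fold in OM2i-iPSC but 1.48-fold in PM2i-iPSC. Hoxa6, a middle gene read on its hexapeptide, was at -4.68 in MEF, -4.40 in ES, -3.68 in PM2i-iPSC and -2.97 in OM2i-iPSC, which puts OM2i-iPSC 3.28-fold above MEF, or 0.97 on the log2 scale with median centring. Hoxa4 probe A_52_P638382 was higher in both iPSC preparations than in MEF but was not lowest there. It was at -4.67 in MEF, -3.13 in OM2i-iPSC and -0.37 in PM2i-iPSC, 2.91- and 19.7-fold above MEF, and lay not well above background in ES, at -4.76. With median centring its OM2i-iPSC difference from MEF fell to 0.80. Hoxb13 is thus a posterior gene that went against the direction of most posterior genes on these arrays. It was not alone in OM2i-iPSC, where Hoxa13 probe A_51_P303316 was 2.44-fold and Hoxd12 2.21-fold above MEF. With median centring these 2 differences fell to 0.54 and 0.40.

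Against ES, Hox probes were near the array as a whole in PM2i-iPSC and more often higher than it in OM2i-iPSC. PM2i-iPSC was at least 2-fold higher for 6 and lower for 4 of 30 Hox probes with a fold, where 15.3% of all probes were higher and 13% lower. The median Hox difference was -0.03, against -0.05 over all probes. OM2i-iPSC was at least 2-fold higher for 11 of 31 Hox probes and lower for 0, where 20.8% of all probes were higher and 15.8% lower. Its median was 0.82, against -0.01 over all probes. Both comparisons share the ES array.

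**Figure D3:**
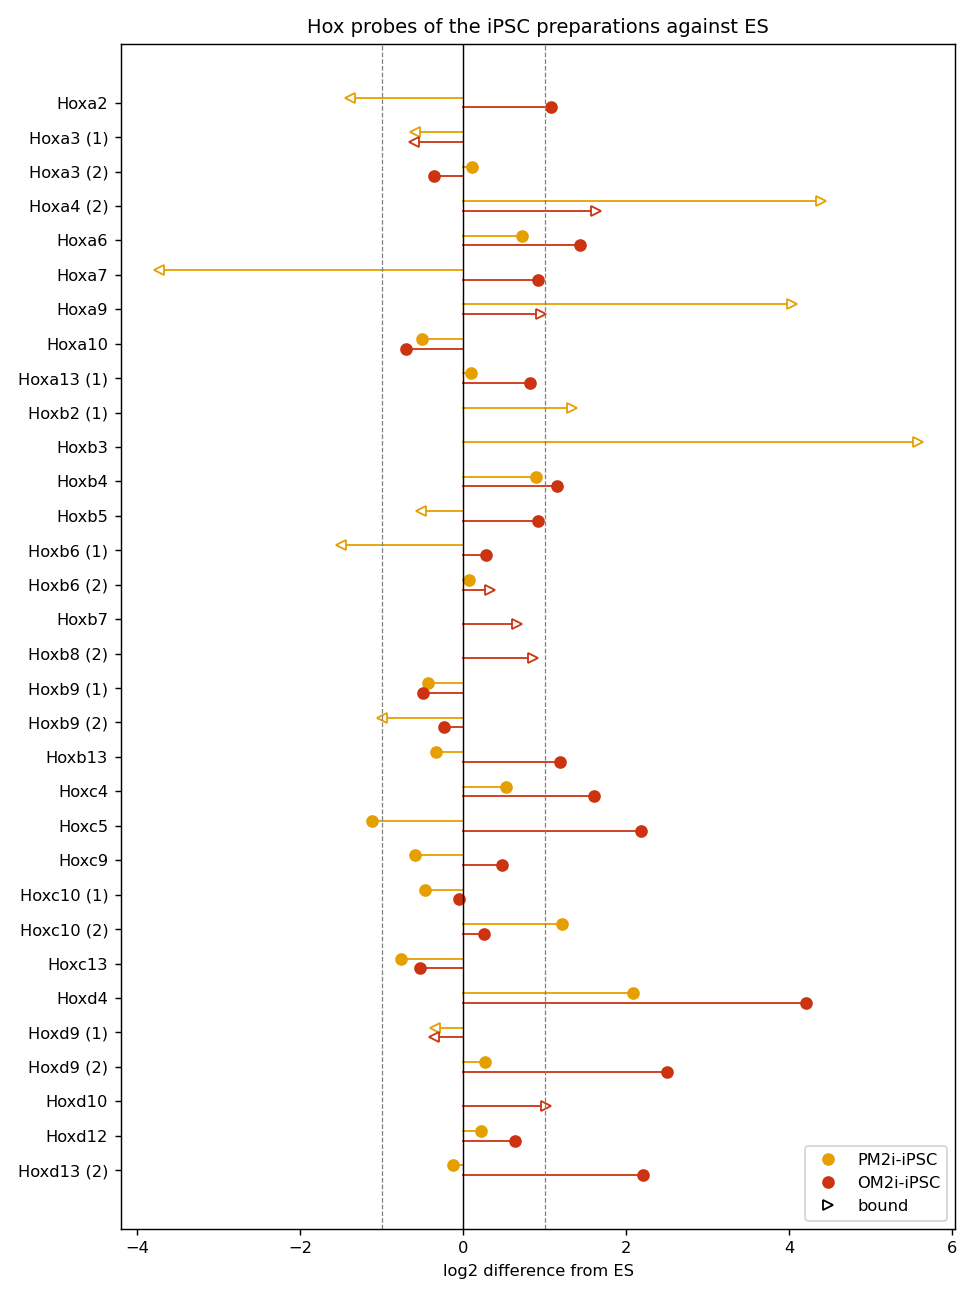
Log2 difference from ES of the Hox probes with a fold, for PM2i-iPSC and OM2i-iPSC. Filled circles are measured on both arrays, open triangles are bounds and dashed lines mark 2-fold. The PM2i-iPSC values reach from -3.74 (Hoxa7) to 5.58 (Hoxb3), while the OM2i-iPSC values lie between -0.70 (Hoxa10) and 4.21 (Hoxd4).

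Of the 6 probes higher in PM2i-iPSC than in ES, 3 were homeodomain probes, each with a bound. Hoxb3 was at least 47.8-fold, Hoxa4 at least 21.0-fold and Hoxa9 at least 16.4-fold above ES, where none of the 3 was well above background. Hoxd4, whose probe held no conserved stretch, was 4.22-fold higher, with both arrays well above background. The second Hoxc10 probe was 2.32-fold higher and the Hoxb2 probe A_51_P257789, which lies on the strand opposite to the other Hoxb probes, at least 2.53-fold higher. Without the 10 homeodomain probes, 3 Hox probes were at least 2-fold higher in PM2i-iPSC than in ES and 4 were lower. On the lower side, Hoxa7 was at least 13.3-fold, Hoxb6 at least 2.82-fold, Hoxa2 at least 2.62-fold and Hoxc5 2.17-fold below ES.

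The 11 probes that were higher in OM2i-iPSC than in ES lay in all clusters, 3 in Hoxa, 2 in Hoxb, 2 in Hoxc and 4 in Hoxd. Hoxd4 was 18.5-fold, the brighter Hoxd9 probe 5.68-fold, the bright Hoxd13 probe 4.62-fold and Hoxd10 at least 2.03-fold above ES, and these were 4 of the 6 Hoxd probes with a fold. The homeodomain Hoxd9 probe went the other way, at -0.36, a bound because OM2i-iPSC was not well above background. The probes of paralog group 4 that gave a fold were all higher as well, with Hoxa4 at least 3.1-fold, Hoxb4 2.21-fold and Hoxc4 3.05-fold above ES beside Hoxd4. Hoxc5 was 4.53-fold, Hoxa6 2.70-fold, Hoxb13 2.28-fold and Hoxa2 2.11-fold higher. The lowest measured value was that of Hoxa10, 1.62-fold below ES. With the arrays centred on their medians in place of the 75th percentile, 8 rather than 11 probes were at least 2-fold higher. The shares over all probes were then 16.7% higher and 20.2% lower.

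Set directly against each other, OM2i-iPSC was at least 2-fold above PM2i-iPSC for 11 of 31 Hox probes with a fold and below it for 3, where 17.4% of all probes were above and 14.6% below. The median Hox difference was 0.42, against 0.07 over all probes. Hoxa7 was at least 25.2-fold, Hoxc5 9.83-fold, Hoxa2 at least 5.55-fold, Hoxd13 5.04-fold, the brighter Hoxd9 probe 4.71-fold and Hoxd4 4.37-fold higher in OM2i-iPSC. The 3 probes that were lower in OM2i-iPSC were the homeodomain probes of Hoxb3, at least 35.1-fold, Hoxa9, 8.50-fold, and Hoxa4, 6.78-fold. Without the 10 homeodomain probes, 10 were higher and 0 lower. The neural markers given above were also higher in OM2i-iPSC, by at least 2-fold in 6 of 11 probes with a fold. Of these 6, 3 were measured on both arrays, and 1 other probe was at least 2-fold lower. The summed level of 10 blood marker probes was 4.08 in OM2i-iPSC, 2.95 in PM2i-iPSC, 2.65 in ES and 1.14 in MEF. It was led by a probe of the globin gene Hbb-bt, at 3.91 in OM2i-iPSC, while every probe of the blood cell markers Ptprc and Spi1 was not well above background there. Summed levels of the trophoblast, mesoderm and endoderm markers were 2.80, -2.92 and 4.29 in OM2i-iPSC, against 2.51, -1.95 and 4.55 in PM2i-iPSC. The trophoblast sum rests on 7 probes in OM2i-iPSC and 8 in PM2i-iPSC. The part of any of these marker lists in the Hox difference was not tested.

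Probes of a cluster differed in how far they moved, and signs were most mixed in Hoxa. ES was at least 2-fold below MEF on 5 of 11 Hoxa and 7 of 12 Hoxb probes with a fold. In Hoxc and in Hoxd it was so on 6 of 9. At least 2-fold higher were 1, 1, 1 and 0, where 24.1% of all probes were lower and 37% higher. Between ES and MEF, Hoxc had the lowest median, -3.51 over 9 probes, followed by Hoxb at -2.50 over 12 and Hoxd at -2.48 over 9, while Hoxa was at -0.44 over 11. Neighbours were taken among probes with a fold, in chromosome order. They shared the sign of the ES minus MEF difference in 4 of 10 pairs in Hoxa and 8 of 11 in Hoxb. In Hoxc and in Hoxd it was 6 of 8, where the unlike pairs lay around a lone probe, Hoxc5 and Hoxd12. Some of these pairs are probes of 1 gene. In Hoxa, the steeply lower Hoxa7, Hoxa9 and Hoxa10 lay between Hoxa6 and Hoxa13, which differed from MEF in ES by 1.21- and 1.38-fold.

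**Figure D4:**
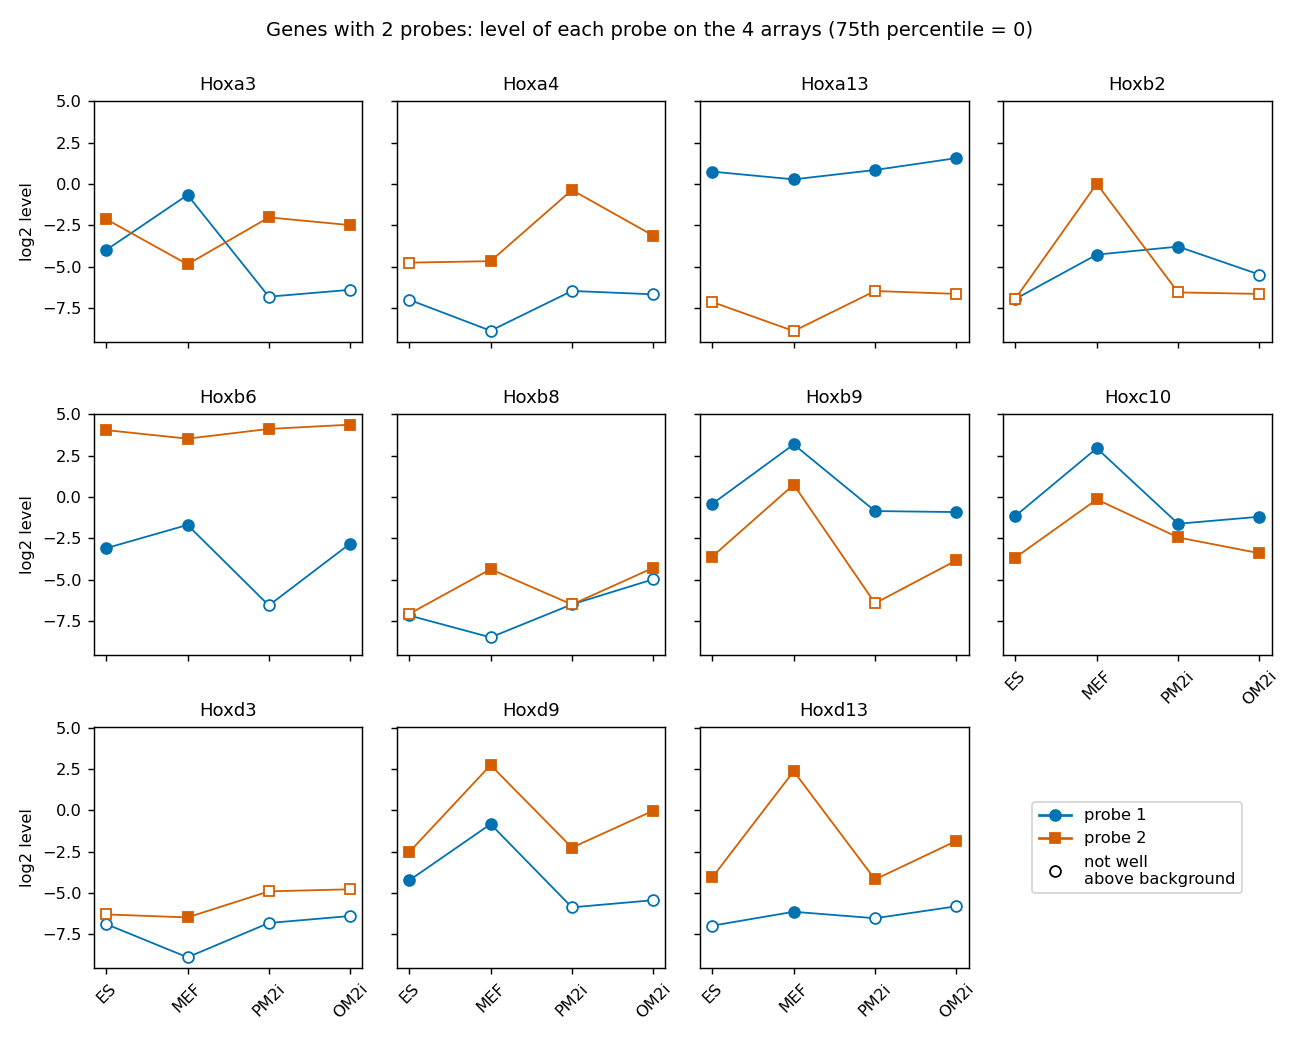
Log2 level of both probes on the 4 arrays for each of the 11 genes with 2 probes (75th percentile of the array = 0). Filled symbols are well above background and open ones are not. The lines run together for Hoxb9 and Hoxc10, cross for Hoxa3 and lie far apart for Hoxa13, Hoxb6 and Hoxd13.

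Among the 11 genes with 2 probes, Hoxa3 was the one whose probes went opposite ways beyond 2-fold. Hoxa3 patterns pharyngeal organs such as the thymus. Probe A_51_P335169 was at -4.0 in ES, -0.67 in MEF and not well above background in PM2i-iPSC or OM2i-iPSC, so that ES was 10.1-fold and both iPSC preparations at least 15.1-fold below MEF. Probe A_52_P447935, which starts 666 bases away, was at -4.86 in MEF, -2.14 in ES, -2.03 in PM2i-iPSC and -2.49 in OM2i-iPSC, between 5.18- and 7.16-fold above MEF. No single direction can be given for Hoxa3 from these arrays.

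Other pairs also gave unequal differences. For Hoxb2, PM2i-iPSC minus MEF was -4.60 on A_52_P15300, a bound, and 0.49 on A_51_P257789. These 2 probes lie on opposite strands, so they need not read the same transcript. For Hoxb6 PM2i-iPSC minus MEF was -2.90, a bound, and 0.59, and for Hoxd9 OM2i-iPSC minus ES was -0.36, a bound, and 2.51. Some pairs had 1 probe near or under background. The Hoxb6 probe A_52_P648750 was between 3.53 and 4.38 on all arrays and saturated in OM2i-iPSC, while A_51_P232207 was at -3.09 in ES, -1.69 in MEF and -2.81 in OM2i-iPSC and not well above background in PM2i-iPSC. For Hoxa13, which shapes limb ends and the urogenital tract, A_51_P303316 was between 0.27 and 1.56 on all arrays, and the homeodomain probe was dark on all. Likewise the Hoxd13 homeodomain probe was near the detection limit in MEF, at -6.14, where A_52_P591310 was at 2.36. Both Hoxb9 probes, both Hoxc10 probes and both Hoxd9 probes were at least 2-fold lower than MEF in ES, PM2i-iPSC and OM2i-iPSC.

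Genes that act upstream of or together with Hox genes were read from lists made for this comparison. The caudal factors Cdx1, Cdx2 and Cdx4 activate trunk Hox genes, and the ParaHox genes Gsx1, Gsx2 and Pdx1 are evolutionary sisters of the Hox clusters. On 3 of their 5 probes with a fold OM2i-iPSC exceeded ES by at least 2-fold and on 0 it was below, with a median of 1.02, where 20.8% of all probes were higher and 15.8% lower. Cdx2 was at 0.41 in OM2i-iPSC, -3.05 in ES and -3.25 in PM2i-iPSC and not well above background in MEF, so that OM2i-iPSC was 11.0-fold above ES and 12.6-fold above PM2i-iPSC. Gsx1, a factor of the ventral forebrain and spinal cord, was at -2.81, -3.17, -1.38 and 1.47 in ES, MEF, PM2i-iPSC and OM2i-iPSC, and 19.5-fold above ES in OM2i-iPSC. Cdx4 was dark on all arrays.

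**Figure D5:**
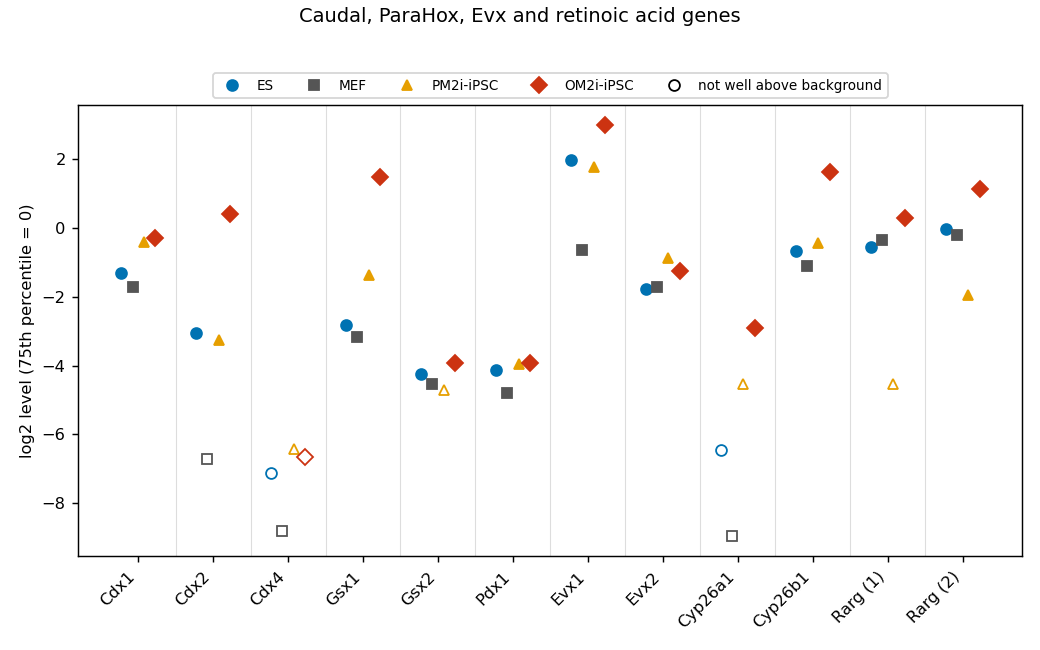
Log2 level on the 4 arrays of the caudal and ParaHox genes, of Evx1 and Evx2 at the ends of the Hoxa and Hoxd clusters, and of the retinoic acid genes Cyp26a1, Cyp26b1 and Rarg (2 probes). Filled symbols are well above background. OM2i-iPSC is the highest of the 4 for Cdx2, Gsx1, Evx1, Cyp26a1, Cyp26b1 and Rarg.

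Retinoic acid induces anterior Hox genes through its nuclear receptors. Among 20 probes of this pathway with a fold, OM2i-iPSC was at least 2-fold above for 9 and below for 5, relative to PM2i-iPSC, with a median of 0.57, where 17.4% of all probes were above and 14.6% below. The receptor gene Rarg was at -0.35 in MEF, -0.54 in ES, -4.55 in PM2i-iPSC and 0.29 in OM2i-iPSC on probe A_51_P372853, and PM2i-iPSC, not well above background, was at least 28.6-fold below OM2i-iPSC. On its other probe the fold was 8.62. In the opposite direction, the retinoid receptor gene Rxrb was 6.02-fold lower in OM2i-iPSC than in PM2i-iPSC on probe A_51_P314830, though 1.16-fold higher on its other probe. Aldh1a3, an enzyme that makes retinoic acid, was at least 4.94-fold lower in OM2i-iPSC on probe A_52_P87843. For the receptor gene Rara, PM2i-iPSC lay 11.9-fold below ES. Cyp26a1, an enzyme that degrades retinoic acid and is itself induced by it, was well above background in OM2i-iPSC alone, at -2.90, and Cyp26b1 was at -0.67, -1.11, -0.43 and 1.62 in ES, MEF, PM2i-iPSC and OM2i-iPSC. Dhrs3, which turns retinal back to retinol, was highest in MEF. On its first probe it was 31.7-fold lower in ES, 64.0-fold in PM2i-iPSC and 88.1-fold in OM2i-iPSC.

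The TALE homeodomain genes (Pbx, Meis and Pknox) encode the cofactors with which Hox proteins bind DNA. Between ES and MEF 15 of their probes gave a fold, of which 5 were higher and 6 lower in ES by at least 2-fold, with a median of -0.51, where 37% of all probes were higher and 24.1% lower. Both Meis2 probes were lower in the pluripotent populations, with A_52_P277641 at 1.94 in MEF, -0.99 in ES, -2.53 in PM2i-iPSC and -1.61 in OM2i-iPSC. The Meis1 probe A_52_P670612 was at 0.85 in MEF, 0.00 in ES, -1.44 in PM2i-iPSC and -3.20 in OM2i-iPSC, so OM2i-iPSC was 9.22-fold below ES. Of its 31 Hox probes with a fold against ES, 11 were at least 2-fold above, 20 within 2-fold and 0 below, where 20.8% of all probes were above and 15.8% below.

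Polycomb and trithorax genes, which keep Hox clusters silent or active, were mostly higher in the pluripotent populations. ES exceeded MEF by at least 2-fold on 26 of their 44 probes with a fold and lay below it on 8, with a median of 1.64, where 37% of all probes were higher and 24.1% lower. Pcgf2, a Polycomb subunit first known as Mel18, was at -6.51 in MEF, 1.57 in ES, -1.09 in PM2i-iPSC and 1.39 in OM2i-iPSC, 270-fold above MEF in ES. Cbx7, which reads the Polycomb mark, was at -5.44 in MEF, 0.56 in ES, 1.18 in PM2i-iPSC and 1.07 in OM2i-iPSC, which is 64.1-, 98.2- and 90.9-fold above MEF. Wdr5, a subunit of the trithorax-type complexes, was likewise at least 89.1-, 451- and 89.7-fold above MEF on probe A_52_P7154. Jarid2, a partner of the second Polycomb complex, was at -2.53 in MEF, 2.32 in ES, 2.22 in PM2i-iPSC and 1.41 in OM2i-iPSC on probe A_51_P264073. A brighter probe, saturated on some arrays, was also lowest in MEF. On the third, A_52_P244712, Jarid2 was at -1.14 in ES and -3.89 in PM2i-iPSC and not well above background in MEF or OM2i-iPSC.

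Genes that flank the clusters gave counts near or under those of the array. ES lay at least 2-fold above MEF on 7 of 26 flanking probes with a fold and below it on 7, with a median of -0.26, against 37% and 24.1% of all probes. Evx1, the homeobox gene beyond Hoxa13, was at -0.63 in MEF, 1.99 in ES, 1.79 in PM2i-iPSC and 2.99 in OM2i-iPSC, while Evx2, beyond Hoxd13, was between -1.78 and -0.88 on all arrays. Snx11, next to the Hoxb cluster, differed between the iPSC preparations, at least 9.82-fold lower in OM2i-iPSC on probe A_51_P161429. Of other factors that set posterior identity, 13 probes gave a fold between ES and MEF, 5 of them higher and 4 lower, with a median of 0.46, beside the same shares of all probes. The mesoderm factor T was dark on all arrays.

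Promoter letters were read from RefSeq's table, on build GRCm38.p6, which held 24 start sites of 22 Hox genes. In the 250 bases before the start, the median GC content was 58.6% for Hox genes and 52.4% over all 32851 windows, and the median observed to expected CpG ratio was 0.72 against 0.37. TTTATG, the core letters bound by Cdx factors, occurred on either strand in 5 of the 24 windows (20.8%) and in 10.8% of all windows. TGATNNAT, letters bound by Pbx and Hox proteins together, occurred in 4 (16.7%) and in 7.68% of all. The windows shown are those of Hoxa7, Hoxd4 and Hoxd13. These genes differed by over 4-fold between the iPSC preparations on probes without a marked homeodomain stretch. Hoxd13 also held the widest measured gap to MEF, on its bright probe without a RefSeq match. On such probes Hoxa2, Hoxd9 and Hoxc5 differed by over 4-fold as well. The windows of Hoxa2 and Hoxd9, not shown, held no TTTATG, and Hoxc5 had no window. Capitals mark TTTATG.
Hoxa7: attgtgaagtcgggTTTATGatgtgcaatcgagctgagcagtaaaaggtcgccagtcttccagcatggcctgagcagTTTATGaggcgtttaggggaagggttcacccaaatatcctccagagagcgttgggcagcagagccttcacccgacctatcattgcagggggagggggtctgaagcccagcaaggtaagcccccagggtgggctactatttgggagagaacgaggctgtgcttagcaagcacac
Hoxd4: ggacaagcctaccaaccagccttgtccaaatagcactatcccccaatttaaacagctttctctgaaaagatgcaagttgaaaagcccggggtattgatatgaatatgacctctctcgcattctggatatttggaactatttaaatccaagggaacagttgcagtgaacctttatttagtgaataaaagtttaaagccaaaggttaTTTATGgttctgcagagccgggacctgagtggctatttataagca
Hoxd13: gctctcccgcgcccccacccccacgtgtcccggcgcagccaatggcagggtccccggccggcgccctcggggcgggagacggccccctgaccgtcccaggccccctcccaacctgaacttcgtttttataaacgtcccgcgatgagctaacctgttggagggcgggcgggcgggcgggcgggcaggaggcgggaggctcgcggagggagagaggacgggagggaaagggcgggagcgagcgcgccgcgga

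The windows are chr6:52218574-52218823 on the minus strand for Hoxa7, and chr2:74721728-74721977 and chr2:74667975-74668224 on the plus strand for Hoxd4 and Hoxd13. Their GC contents were 54.8%, 40.4% and 74.4%, and they held 7, 3 and 31 CpG. The letters TTTATG stood in the Hoxa7 and Hoxd4 windows and not in that of Hoxd13. These matches describe the letters only, and binding was not measured.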

How the data were processed

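Each of 4 RNA samples was hybridised to 1 Agilent one-colour array. Per the file headers, the deposited spot intensity came from Agilent Feature Extraction, version 9.5.3.1 for the MEF array and 10.7.3.1 on the others. The processed signal is background-corrected within the array by that software and is not scaled between arrays. The deposited series table holds the same intensity, within 0.5% on every spot.

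Here, control and outlier spots were dropped, repeated spots averaged, and each log2 signal set relative to its array's 75th percentile (1877 in MEF, 3160.1 in ES, 3531 in PM2i-iPSC, 3461 in OM2i-iPSC). Gene names, sequences and coordinates (build mm7) came from the MEF file. Of the 49 probes, 44 carried an accession that RefSeq assigns to the same Hox gene, and 5 had no match. Those 5 were the Hoxd8 probe, Hoxb2 A_51_P257789, Hoxb6 A_52_P648750, Hoxb9 A_52_P973575 and Hoxd13 A_52_P591310. Folds were counted at 2-fold, with bounds as described in the Results. With 1 array per group no test was run. Counts and medians were recomputed with median centring, quantile normalisation, normexp (offset 50, limma 3.58.1, on median signals), the deposited table, 1 detection floor, detection on both arrays, 1 probe per gene, accession-matched probes, a 4-fold threshold and, added after seeing the data, without homeodomain probes. The calculation was tested on simulated data.

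Probes at least 4-fold apart (up to 12 per comparison), the extremes of each cluster, genes with opposed probes and up to 4 list genes per comparison were to be named. Other genes named for contrast were chosen after their values were seen. The members, the lists and this rule were chosen with earlier results of these data known. The planned comparison on the other array type was not made, since no table used here pairs its probe sets with genes. Values of 1 member gene, which the counts include and the plots leave out, and the letters of some probes are not reported here.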

Additional observations from a re-analysis of the deposited data

Results flagged for a closer look

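For 3 Hox probes the iPSC preparations lay on opposite sides of the same array, each by at least 2-fold. Hoxc5 was below ES in PM2i-iPSC and above ES in OM2i-iPSC, 3.30 apart on the log2 scale with all 3 arrays well above background. Hoxa2 showed the same pattern against ES, at least 2.47 apart, and was not well above background in PM2i-iPSC. The Hoxb3 homeodomain probe was above MEF in PM2i-iPSC and below it in OM2i-iPSC, with a log2 difference of OM2i-iPSC minus PM2i-iPSC of -5.13, a bound because OM2i-iPSC was not well above background. With median centring, Hoxa2 in OM2i-iPSC against ES fell to 0.90 and Hoxb3 in PM2i-iPSC against MEF to 0.80, both under 2-fold, whereas Hoxc5 kept both sides beyond 2-fold. With 1 array each, none of these differences was tested.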

How the results depend on the processing

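Of 174 recomputed counts and medians, 139 stayed within 1.5 times the reported count or within the spot error of the reported median, 34 moved further and 1 reversed. The cause of these shifts was not tested beyond what each setting itself leaves out. Requiring detection on both arrays, which leaves out every bound from a dim side, turned the median of PM2i-iPSC against MEF from -2.27 to 0.49 and moved that of OM2i-iPSC to -1.13. It left 15, 10 and 15 probes at least 2-fold lower than MEF in ES, PM2i-iPSC and OM2i-iPSC, against 21.8%, 23.5% and 24.3% of all probes. Against ES it left 2 higher and 1 lower in PM2i-iPSC, and it left 7 higher in OM2i-iPSC than in PM2i-iPSC. The shares over all probes were 12.2%, 10.9% and 14.2% in that order. The median of ES against MEF was -3.03 with median centring, -3.08 with quantile normalisation, -1.71 with normexp, -3.21 with 1 detection floor, -2.79 over accession-matched probes and -3.33 without homeodomain probes. That of PM2i-iPSC against MEF was -2.56 with median centring, -1.82 with normexp, -1.84 with 1 probe per gene and -2.90 without homeodomain probes. That of OM2i-iPSC against MEF was -1.21 with normexp, -1.24 with 1 probe per gene and -2.76 without homeodomain probes. With 1 detection floor the median of OM2i-iPSC against ES was 0.48.

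With median centring 3 probes were higher than MEF in each iPSC preparation, where 28.0% of all probes were in PM2i-iPSC and 28.6% in OM2i-iPSC. Quantile normalisation gave 5 lower in OM2i-iPSC than in PM2i-iPSC, against 17.5% of all probes. At 4-fold, 3 probes were higher than MEF in each iPSC preparation, where 24.3% of all probes were in PM2i-iPSC and 26.1% in OM2i-iPSC. In PM2i-iPSC 1 was below ES, against 2.72% of all probes. In OM2i-iPSC 4 were higher than in ES and 6 higher than in PM2i-iPSC, against 6.12% and 4.50% of all probes. Without homeodomain probes, 2 were higher than MEF and 3 higher than ES in PM2i-iPSC, 7 were higher than ES in OM2i-iPSC, and 0 were lower in OM2i-iPSC than in PM2i-iPSC, with a median of 0.71. Leaving those probes out of the Hox counts did not change the shares over all probes. The deposited table moved none of the Hox counts or medians. Of 121 differences of at least 2-fold, 0 changed sign under median centring, quantile normalisation or normexp and 16 fell under 2-fold in at least 1 of them, among them Hoxa6 in both iPSC preparations and Hoxd12 in OM2i-iPSC against MEF.

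No paired analysis was possible because each group had 1 array. Signal over background limits 3 of the arrays more than MEF, so an order among dim values in ES, PM2i-iPSC and OM2i-iPSC cannot be given.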
